A study of Mus musculus with 2 samples.

Results

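The genes described here build, load and gate the primary cilium, together with the Hedgehog pathway that signals through it and a few genes of motile cilia. They were taken by name: every probe set with a single platform gene symbol that starts with Ift, Bbs or Tctn and a digit, or that is 1 of 40 listed symbols. Of the 40, 36 had a probe set, and the symbol pattern gave 25 more genes, so the set held 61 genes with 103 probe sets out of 34945 with a single gene. Rpgrip1l, Arl13b, Arl6 and Pkd2 were not analysed here. The rule itself uses no measured value.

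RNA came from 2 mouse lines that the labels call the Mlesico epithelial cell line and the Mle29c epithelial cell line, in a series on miR-29c in pulmonary fibrosis. Both grew in DMEM with 10% FBS, and no treatment is given. The labels leave out how the lines were made, whether each is a clone, and in which direction miR-29c was altered. Each line was measured on 1 array, so no replicate spread exists, no p-value is given, and each difference below compares those arrays.

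A primary cilium is a single antenna that most epithelial cells grow from a basal body. Intraflagellar transport (IFT) trains carry cargo along it: the IFT-B complex moves outward on kinesin-2 and the IFT-A complex returns with dynein-2. The BBSome couples membrane proteins to these trains, and the transition zone at the base decides which proteins enter. In vertebrates, Hedgehog signals are read inside this compartment, where Smo is activated and the Gli factors are processed. Motile cilia, which clear mucus in the airways, share the transport machinery and add axonemal dyneins, tektins and radial spokes.

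For orientation, the mature strand of the microRNA the series is named for is shown from RefSeq, with its seed (bases 2 to 8) in capitals; it lies at chr1:195037600-195037621 on the plus strand of GRCm38.p6.
mmu-miR-29c-3p: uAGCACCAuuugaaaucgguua
Matches of this seed to member transcripts were not analysed here.

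Values are log2 ratios, Mle29c minus Mlesico. The deposited values of each probe set are centred on the midpoint of both arrays, so Mle29c holds plus and Mlesico minus 0.5 of each ratio, up to rounding; the log base is not stated and was taken as 2. The centring removed absolute levels. Rounding in the stored numbers still gives a coarse level class: high for a mean log2 level of 8 or more, middle for 4 to 8, low below 4. A gene was called measured if at least 1 probe set was high or middle, and its value is the median over those. The class is approximate, most of all where both values sum to exactly 0: it then comes from the rounding step, which can place a weaker probe set too high, and 29 of the 49 high-class member probe sets rest on it. By this rule 58 members were measured; Ift52, Rsph1 and Spag6 had low-class probe sets alone. As a rough guide to technical error, different probe sets of a gene had a pooled SD of 0.62 over 6844 measured genes with at least 2. Over 20 such members it was 0.64. This SD compares probe sets on the same pair of arrays. It leaves out any difference between cultures and any array error that shifts the probe sets of a gene together.

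Most members differed by less than 2-fold between the lines. Among the 58 measured genes, Mle29c exceeded Mlesico by 2-fold or more for 3 (5.17%) and the reverse held for 5 (8.62%), against 8.46% and 7.25% of 14780 measured genes. Past 2-fold either way were 15.7% of all measured genes. These shares are near the background. The median over members was -0.02 and over all measured genes 0.01. Over probe sets, 10 of 103 were at least 2-fold higher and 14 lower, against 12.7% and 11.7% of all named probe sets. Among the 89 of the high or middle class the counts were 7 and 9, against 7.99% and 7.38%, and among the 49 of the high class 1 and 4, against 5.68% and 4.9%. The genes past 2-fold were Tmem216, Tekt1 and Ift122 on the high side and Gli2, Gli3, Ofd1, Dnah9 and Bbs7 on the low side.

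**Figure D1:**
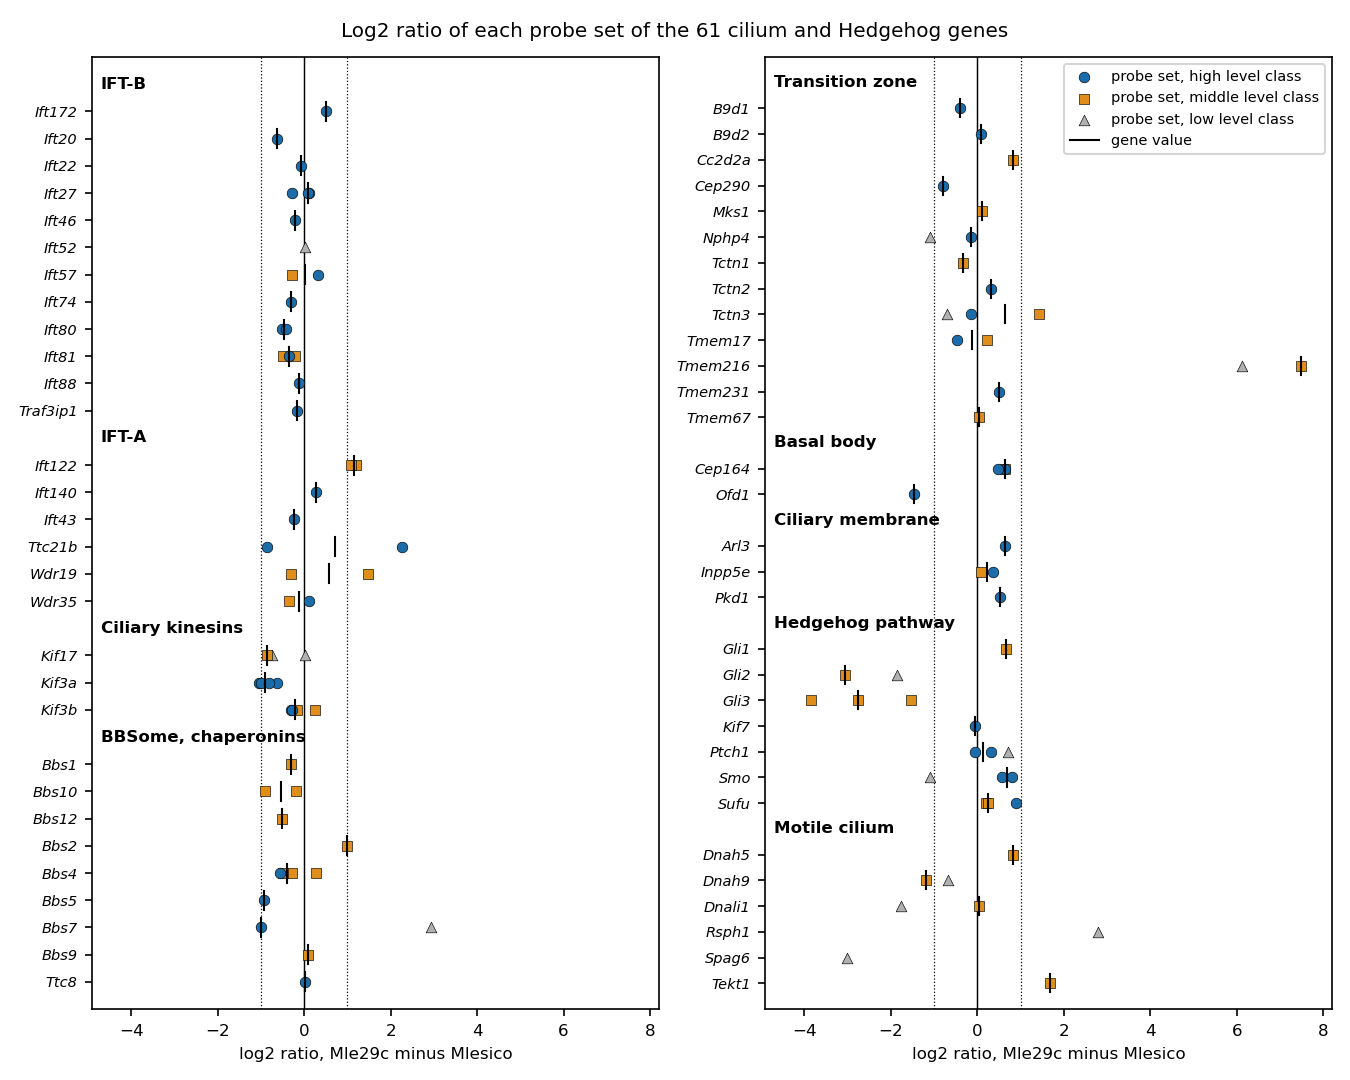
Log2 ratio of Mle29c over Mlesico for each of the 103 probe sets (points; shape and colour give the level class), by gene and functional group; black bars are gene values and dotted lines mark 2-fold. Both Tmem216 probe sets lie beyond 6, all Gli2 and Gli3 probe sets lie below -1.5, and every IFT-B probe set lies inside the dotted lines.

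The size of a difference went with the level class. Past 2-fold in either direction were 5 of 49 member probe sets of the high class, 11 of 40 of the middle class and 8 of 14 of the low class. Among all named probe sets the shares were 10.6%, 22.9% and 56.1%. Members in each class were thus past 2-fold about as often as other probe sets of that class, and low-class ratios are given below only as values.

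**Figure D2:**
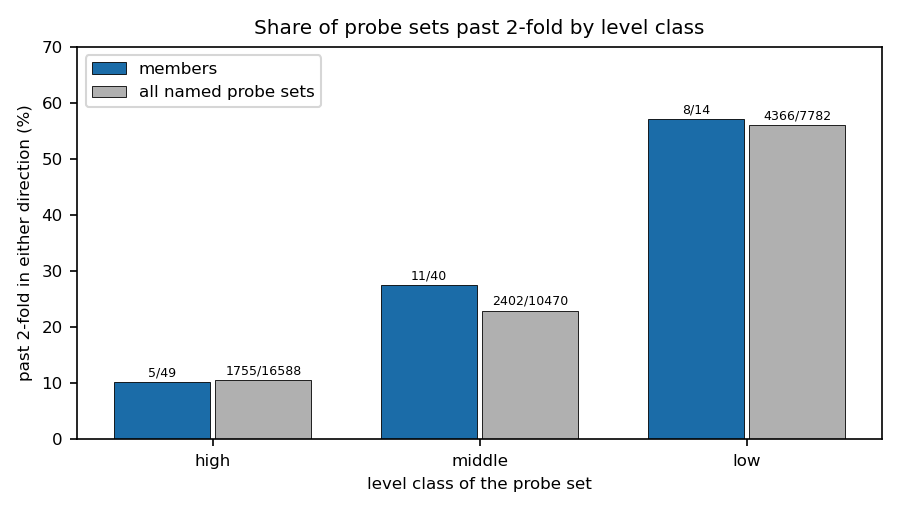
Percentage of probe sets past 2-fold in either direction, by level class, for members (blue) and all named probe sets (grey); labels give the number past 2-fold over the number in the class. The share is 57.1% for members and 56.1% for all in the low class, and 10.2% and 10.6% in the high class.

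The IFT-B complex, the outward carrier of the transport train, was close to level between the lines. All 11 measured genes lay within 2-fold, from Ift20 at -0.63 to Ift172 at 0.50, with a median of -0.17; 8 were below 0. Ift88, the subunit whose loss is a standard way to remove cilia in mice, stood at -0.13 from 1 probe set, with centred values of 0.06 in Mlesico and -0.06 in Mle29c. Ift80 had both probe sets below 0, at -0.50 and -0.42. Ift81, which with Ift74 forms a tubulin-binding module, had its 3 probe sets between -0.49 and -0.21, and Ift74 stood at -0.31. Traf3ip1 (also called IFT54), Ift46, Ift22, Ift27 and Ift57 lay between -0.22 and 0.08. The only Ift52 probe set was low class, at 0.01. Each of these differences is around or inside the probe set SD.

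IFT-A, the return complex, was wider, with a median of 0.42 over 6 genes. Ift122, one of its core subunits, was the single member past 2-fold: its probe sets had centred values of -0.60 and -0.54 in Mlesico and 0.60 and 0.54 in Mle29c. Both were thus higher in Mle29c, with ratios of 1.20 and 1.09 and a gene value of 1.14. Ift122 lies on chromosome 6, where the median of all 771 measured genes was 0.32, and set against that median it stood at 0.82, inside 2-fold. Ttc21b and Wdr19 had probe sets that disagreed. Ttc21b (IFT139) showed 2.27 and -0.85, both placed in the high class by the rounding step. Wdr19 (IFT144) showed 1.47 and -0.32, both in the middle class. Their gene values of 0.71 and 0.58 thus describe neither probe set, and the group median of 0.42 rests partly on them. Ift140 was at 0.27, Wdr35 at -0.12 and Ift43 at -0.24.

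Kif3a and Kif3b encode the motor subunits of kinesin-2. All 4 Kif3a probe sets, each placed in the high class (1 of them from the sum), were lower in Mle29c, at -1.04, -1.001, -0.80 and -0.62, with a gene value of -0.90. Against the median of chromosome 11, which was -0.25, Kif3a stood at -0.65. Its partner Kif3b differed less: its 4 probe sets lay between -0.31 and 0.25, with a value of -0.22. Kif17, a kinesin of ciliary membrane cargo, stood at -0.85 from its middle-class probe set, with low-class ones at -0.73 and 0.03. That middle class came from the rounding step.

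Of 9 BBSome and chaperonin genes, 6 were below 0 and the median was -0.39. Bbs2 and Bbs7 belong to the same subcomplex of the BBSome and stood at opposite ends. Bbs2 was at 0.9995, just under 2-fold, with centred values of -0.50 in Mlesico and 0.50 in Mle29c. Bbs7 was at -1.01 from a high-class probe set (0.50 in Mlesico, -0.50 in Mle29c), while its second, of the low class, stood at 2.94; over both the value was 0.97, so the direction depends on the low-class probe set. Bbs5 was at -0.93, and the chaperonin-like genes Bbs10 and Bbs12, which help assemble the BBSome, at -0.54 and -0.51. Bbs4 had 3 of 4 probe sets below 0, from -0.56 to 0.27, and Bbs1 stood at -0.31. Bbs9 and Ttc8 (BBS8) were at 0.10 and 0.03.

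The widest difference among members was at Tmem216, a transition zone membrane protein whose human gene is mutated in Joubert and Meckel syndromes. Its first probe set had a centred value of -3.75 in Mlesico and 3.75 in Mle29c, and its second had -3.06 and 3.06. Both were far higher in Mle29c, with log2 ratios of 7.49 and 6.11, or 180-fold and 69.3-fold. The gene ranked 6 from the top of 14780. For pairs so far apart the rounding sets only a lower limit on the mean level, of 4 and 2 for these probe sets, which places the Mle29c level at 7.75 or more and 5.06 or more. The same limits bound the Mlesico level only loosely, so it may be very low. A fold taken against a very low level is uncertain, although the difference between the stored values is as given. The second probe set was placed in the low class by its lower limit alone, and its mean level may be higher; by the rule the gene value then comes from the first. The mean over both was 6.80.

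Genes beside Tmem216 did not share its ratio. The order of protein-coding genes was taken from the GRCm38.p6 gene table. Of 20 neighbours, 10 on each side, 16 were measured, with a median of 0.52 and 14 above 0. Tmem138, the adjacent gene, also a ciliary gene linked to Joubert syndrome, stood at 0.35, and Cpsf7 on the other side at 0.56. The highest neighbour was Syt7 at 2.46 and the lowest Pga5 at -2.12. The median of all 521 measured genes of chromosome 19 was 0.27.

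**Figure D3:**
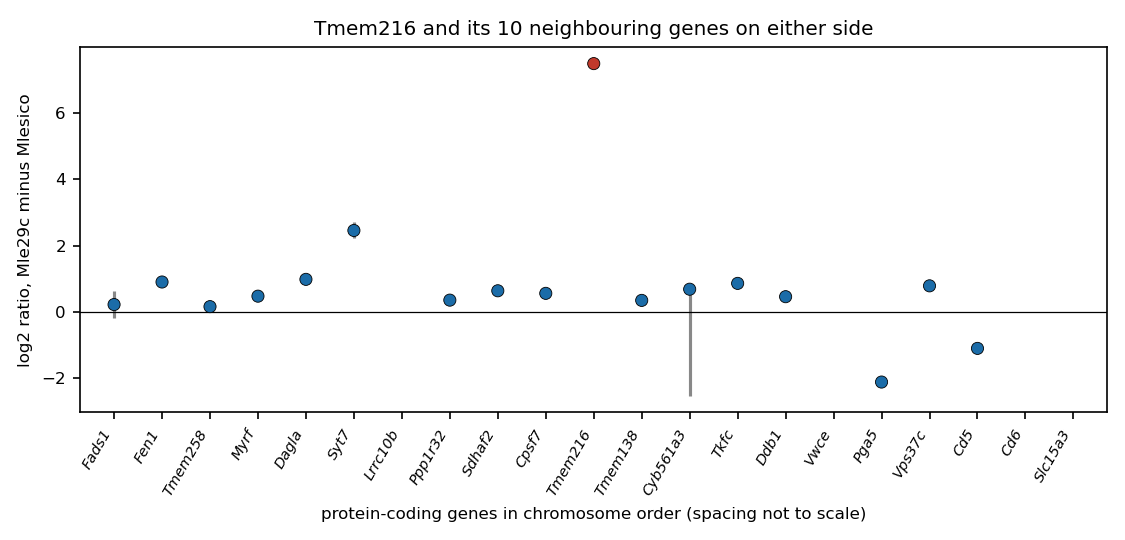
Log2 ratio of Tmem216 (red) and of the protein-coding genes around it (blue) in chromosome order; grey lines span the measured probe sets of a gene and gaps are genes not measured. Tmem216 stands at 7.49, while its 16 measured neighbours run from -2.12 to 2.46.

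The other 12 transition zone genes stayed within 2-fold, from Cep290 at -0.80 to Cc2d2a at 0.82, and the group median with Tmem216 was 0.08. Cep290, which links microtubules to the ciliary membrane, had centred values of 0.40 in Mlesico and -0.40 in Mle29c. Cc2d2a, which organises the MKS module, had -0.41 and 0.41. The B9 domain genes of that module were near 0 or lower, with Mks1 at 0.12, B9d2 at 0.08 and B9d1 at -0.39. Its membrane proteins Tmem231, Tmem67 and Tmem17 stood at 0.49, 0.05 and -0.12. The tectonic genes had no shared direction: Tctn1 was at -0.34, Tctn2 at 0.32, and Tctn3 showed 1.43 and -0.15 in its measured probe sets and -0.70 in a low-class one. Nphp4 was at -0.15, with a low-class probe set at -1.10.

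At the basal body, Ofd1 and Cep164 stood apart. Ofd1, a centriole protein encoded on the X chromosome, had centred values of 0.73 in Mlesico and -0.73 in Mle29c in its only probe set, of the high class, a ratio of -1.46. Against the X chromosome median of -0.12 it was at -1.35. Cep164, a distal appendage protein that docks the centriole to the membrane, was higher in Mle29c in all 3 probe sets, at 0.64, 0.63 and 0.49. Among genes of the ciliary membrane, Arl3, a GTPase that releases lipid-anchored cargo, was at 0.65, Pkd1 (polycystin 1) at 0.52 and the phosphoinositide phosphatase gene Inpp5e at 0.23, all above 0 and within 2-fold.

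In the Hedgehog pathway the 2 members past 2-fold were both Gli factors, and both were lower in Mle29c. Gli3, which is processed to the main repressor of the pathway, had centred values of 1.92, 1.38 and 0.77 in Mlesico and -1.92, -1.38 and -0.77 in Mle29c. All 3 probe sets, of the middle class, were lower in Mle29c, with ratios of -3.84, -2.76 and -1.53 and a gene value of -2.76. Gli2, the main activator, had 1.53 in Mlesico and -1.53 in Mle29c in its middle-class probe set, a ratio of -3.06. That class came from the rounding step, which can place a weaker probe set too high. Gli2 has no value where classes come only from the sum. Its low-class probe set was at -1.85. Gli3 ranked 178 and Gli2 137 from the bottom of 14780 genes.

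The rest of the pathway was within 2-fold, and the median over all 7 measured Hedgehog members was 0.13. Gli1 and Ptch1 are transcribed in response to Hedgehog signals. Gli1 stood at 0.65 from 1 probe set, and Ptch1, the receptor that holds Smo inactive, at 0.13, with measured probe sets at -0.06 and 0.33 and a low-class one at 0.71. Smo was at 0.69 over probe sets at 0.80 and 0.58, with a low-class one at -1.10. Smo lies on chromosome 6, and against that chromosome's median it stood at 0.36. Sufu, which holds Gli proteins in the cytoplasm, was at 0.26, with 3 probe sets from 0.20 to 0.90, and Kif7, the kinesin at the tip of the cilium, at -0.06.

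Of the motile cilium genes, 4 of 6 were measured, with a median of 0.43, and 4 of their 8 probe sets were low class, against 22.3% of all named probe sets. Tekt1, a tektin of the axoneme, had centred values of -0.84 in Mlesico and 0.84 in Mle29c, a ratio of 1.68 from 1 middle-class probe set. Dnah9 (an outer arm dynein heavy chain) was at -1.20 from 1 middle-class probe set, with a low-class one at -0.69. Dnah5, another outer arm heavy chain, was at 0.83 from 1 middle-class probe set. The middle class of Dnah9 and of Dnah5 came from the rounding step. Dnali1, an inner arm light chain, stood at 0.04, with a low-class probe set at -1.77. The low-class values of Rsph1, a radial spoke head protein, and Spag6, of the central pair, were 2.78 and -3.02. Of 10 multiciliated cell markers 9 were measured, from -1.76 to 3.01 with a median of 0.04, and 5 of their 14 probe sets were low class. A high-class probe set was found for 3 of the markers, and from the sum for 0. For Tppp3, Tekt2, Ccdc39, Hydin, Ccdc40, Spag17 and Rsph4a the measured class came from the rounding step. That step can place a weaker probe set too high. The part of multiciliated cells in these values was not tested. A different number of such cells and a different amount of RNA per cell cannot be told apart here.

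**Figure D4:**
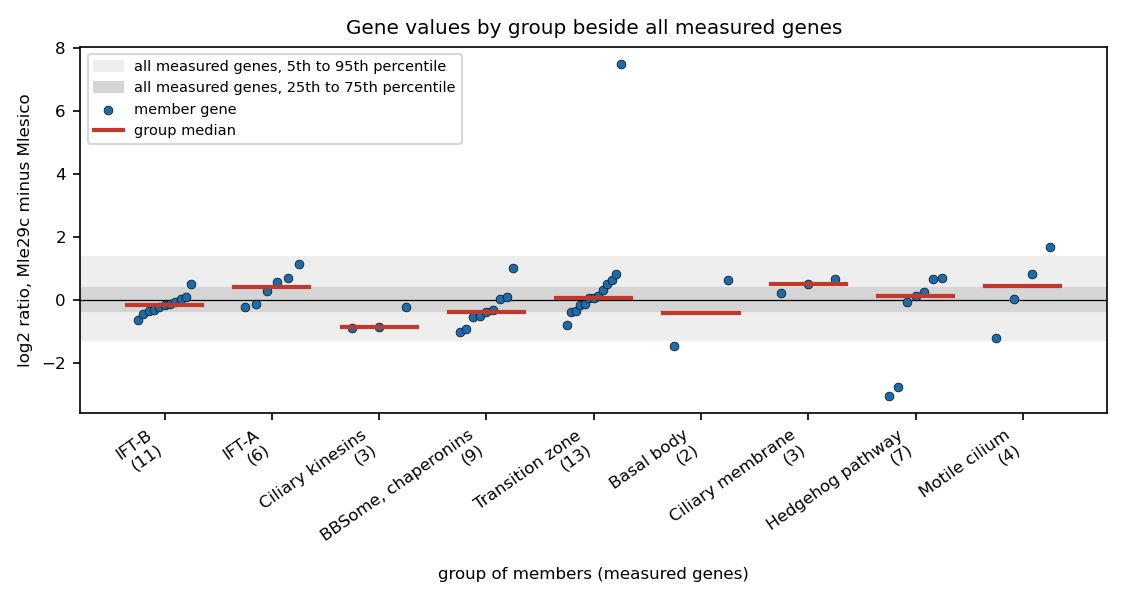
Gene value (points) and median (red bars) of each group, as log2 ratio of Mle29c over Mlesico, with the number of measured genes under each name; grey bands give the 5th to 95th and 25th to 75th percentiles of all 14780 measured genes. Tmem216, Gli2 and Gli3 lie far outside the wider band of -1.27 to 1.37, and all 11 IFT-B genes lie inside it.

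Group medians thus ran from -0.85 for the 3 kinesins to 0.52 for the 3 ciliary membrane genes. The kinesin median is the value of Kif17, whose class came from the rounding step. With classes from the sum alone it was -0.61, and in the high class -0.60, over 2 genes each. Centred within chromosomes it was -0.65. The median of IFT-B was -0.17, of the BBSome -0.39 and of the transition zone 0.08. With 1 array per line the error of a group median is not known, and their order was not tested. Within 2-fold were 16 of 17 transport genes, 8 of 9 BBSome genes, 12 of 13 transition zone genes, 5 of 7 Hedgehog genes and 2 of 4 motile genes, against 84.3% of all measured genes.

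Other genes of the same machinery were taken from 8 lists of 106 genes, 82 of them measured. At least 2-fold higher were 5 and lower 4, against the same 8.46% and 7.25%, with a median of -0.06. The highest was Ttc30a1, an IFT-B subunit gene (IFT70), at 4.05 from 1 middle-class probe set; its paralog Ttc30b stood at -0.70, and low-class probe sets of the paralog Ttc30a2 at 1.32 and 1.12. Signals of such near copies may not be separable. Dync2h1, the dynein-2 heavy chain, was at -0.83 and Cluap1 (IFT38), the lowest of the transport list, at -0.9956. By gene value, all 13 further basal body genes lay between Pcm1 at -0.50 and Fbf1 at 0.46. All 9 transition zone genes lay between Nek8 at -0.97 and Tmem218 at 0.74, and all 5 BBSome-linked genes between Rab3ip at -0.23 and Bbip1 at 0.52. Some of these values lie between probe sets that disagree. Fuz had middle-class ones at -1.63 and 1.25, Pcm1 measured ones from -1.18 to 0.95, and Tmem107 high-class ones from -1.04 to 0.36. Genes of cilium disassembly ran from Kif2a at -0.44 to Nek2 at 0.19.

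Of 9 further Hedgehog genes, the ligand gene Shh was at -1.30, with probe sets at -1.85 and -0.75, and the co-receptor gene Boc at 1.08 from its high-class probe set, with low-class ones in the opposite direction at -0.88 and -1.76. Hhip, a target and inhibitor of the pathway, stood at 0.67 from its high-class probe set, with low-class ones at 2.97, 1.10 and -0.50. Among transcription factors, Foxj1, the regulator of motile cilia, was at -1.76, while the RFX genes ran from Rfx3 at -0.29 to Rfx2 at 0.64. Myb stood at 0.89 over probe sets at 0.89, -0.31 and 1.78, so its direction depends on the probe set. In the motile list Rsph4a was at 3.01, Hydin at 1.70 and Tekt3 at 1.04, and Cfap52 was at -1.84 and Pifo at -1.15. Each rests on 1 measured probe set, of the middle class. For Rsph4a, Hydin and Pifo that class came from the rounding step, which can place a weaker probe set too high.

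RFX factors bind the X-box, an imperfect inverted repeat found in front of many cilium genes, so member promoters were searched for it. The search used GTNNCC and GGNAAC with 0 to 3 bases between them, on both strands of the RefSeq promoters of GRCm38.p6 (250 bases before to 50 after each start). Of 55 member genes with a promoter in the table, 12 held a match (21.8%), against 2.68% of 27025 genes. They were 7 of 12 transition zone genes, 3 of 9 BBSome genes and 2 of 10 IFT-B genes; the windows of the other groups held no match. The matches of Tctn1, Bbs4, Tmem216, Tmem231 and Bbs1 lie after the listed start and not in front of it. Ift22 and Ift57 held 2 matches each, of which the first is shown. A match is a description of these letters and not a shown binding site. The windows below give the match in capitals with up to 8 bases on each side. They were picked by the match, so the likeness of the capitals is set by the search. The part of the motif in the ratios was not tested.
Tmem216, chr19:10555723-10555752, minus strand: tgtacgcaGTTTCCATGGGGACtgaacatg
Bbs7, chr3:36613489-36613518, minus strand: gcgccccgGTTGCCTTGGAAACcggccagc
Bbs4, chr9:59353464-59353493, minus strand: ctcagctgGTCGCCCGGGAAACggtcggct
Bbs1, chr19:4906605-4906634, minus strand: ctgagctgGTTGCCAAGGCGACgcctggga
Nphp4, chr4:152477903-152477932, plus strand: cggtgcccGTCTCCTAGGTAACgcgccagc
Mks1, chr11:87853183-87853212, plus strand: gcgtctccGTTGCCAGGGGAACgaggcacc
Tctn1, chr5:122264411-122264432, minus strand: ctgtgactGTTGCCCGGGCAAC
Tctn2, chr5:124598679-124598708, plus strand: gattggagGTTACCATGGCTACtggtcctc
Tctn3, chr19:40612351-40612379, minus strand: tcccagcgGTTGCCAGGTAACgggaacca
Tmem231, chr8:111933781-111933810, minus strand: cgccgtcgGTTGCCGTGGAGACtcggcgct
Ift22, chr5:136908079-136908108, plus strand: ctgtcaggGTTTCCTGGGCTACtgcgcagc
Ift57, chr16:49699199-49699228, plus strand: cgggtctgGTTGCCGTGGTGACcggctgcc

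Members with a match had a median ratio of -0.03, from Bbs7 at -1.01 to Tmem216 at 7.49, and the 41 measured members without one a median of -0.06. The Tmem216 match lies just after 1 of its listed starts, in the promoter at chr19:10555714-10556013 on the minus strand, shown because it belongs to the member with the widest ratio.
Tmem216 promoter: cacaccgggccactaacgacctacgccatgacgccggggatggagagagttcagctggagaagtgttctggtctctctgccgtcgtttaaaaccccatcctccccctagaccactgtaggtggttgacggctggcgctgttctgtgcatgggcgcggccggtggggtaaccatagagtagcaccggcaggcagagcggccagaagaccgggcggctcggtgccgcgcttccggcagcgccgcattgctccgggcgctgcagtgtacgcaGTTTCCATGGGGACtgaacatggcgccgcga
The Gli site GACCACCCA was found on either strand in none of the 55 member genes' promoters and in 0.289% of all genes.

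Some chromosomes had medians away from 0. Medians of all measured genes were 0.36 on chromosome 15, 0.32 on chromosome 6, 0.27 on chromosome 19 and -0.25 on chromosome 11. All 4 members on chromosomes 6 and 15 (Ift122, Smo, Ift27 and Dnah5) and 4 of 5 on chromosome 19 were above 0, and 5 of 7 on chromosome 11 were below 0. These chromosomes were picked by their medians, and the shares of all their genes above or below 0 were not taken. The part of the chromosome in the ratios of the members was not tested. As a check of the epithelial label, 6 of 7 epithelial markers were measured, Cldn4 being low class, and 2 had a high-class probe set. For alveolar type 2 markers these counts were 6 and 5 of 7, for fibroblast markers 6 and 4 of 6, for endothelial markers 3 and 2 of 4, and for immune markers 3 and 0 of 4. Alveolar type 2 cells are themselves epithelial, so their counts do not go against the label. Counting only high classes from the sum, there were 1 epithelial, 2 alveolar type 2, 1 fibroblast, 0 endothelial and 0 immune markers. These counts are too few to set epithelial cells apart from fibroblasts.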

How the data were processed

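One oligonucleotide array per line was hybridised with biotin-labelled cRNA from 6 ug of total RNA, per the labels. The authors' values come from MAS5, per the submitters' processing notes, which name no version. Deposited values are log2 (base taken, not stated), centred per probe set by the authors: both values sum to 0 within rounding and each column's median is 0. Of 45101 probe sets, 64 are controls, 34945 list a single gene, 932 several and 9160 none here, per the platform annotation of 2016; 34741 were found in the GRCm38.p6 gene table by gene number.

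The level class came from the size of the sum of both values, which equals the float32 spacing at the mean level, or, where the sum was 0 (21643 probe sets), from the rounding step, which is less certain and can place a weaker probe set too high. It was tested on simulated data, where classes from the step were often wrong, mostly by being too high, and widely split pairs were often placed too low. With 1 array per line nothing was tested: genes were called by size at 2-fold, and the number of arrays limits the precision. Every member past 2-fold and the ends of each group were named, and of the other lists each gene past 2-fold and both ends. The members and lists were chosen with earlier results of these data known; the motifs, neighbours and further values were chosen after the values were seen. Python 3.11.15, numpy 2.4.6 and pandas 2.3.3 were used.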

Additional observations from a re-analysis of the deposited data

How the results depend on the processing

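Counts moved with the threshold and the probe sets kept. At 1.5-fold, 12 member genes were higher and 10 lower, 20 and 25 member probe sets, and 9 and 13 other pathway genes. At 4-fold these were 1 and 2, 5 and 4, and 2 and 0. In the high class alone, 0 member genes were higher and 2 lower (38 measured), 1 and 4 member probe sets, and 1 and 0 other genes. Without low-class probe sets 9 member probe sets were lower. Centred within chromosomes, 3 member genes were lower. With every probe set kept 10 other genes were higher. Taking classes only from the sum, an alternative chosen after seeing the data, gave 3. Fewer or more genes enter by construction. Shares of all genes were not taken for these alternatives, nor shares of all probe sets at 1.5-fold and 4-fold. Those counts are thus not read against a background. In the high class the median was -0.75 for the BBSome (reported -0.39), 0.41 for the Hedgehog pathway (0.13) and -0.15 for the transition zone (0.08). From the sum only it was 0.36 for the transition zone and 0.86 for the motile genes (reported 0.43), which stood at -0.018 with every probe set. The cause was not tested.

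Of the 8 member genes past 2-fold, 5 stayed past it in the same direction under each of the 4 to 6 alternatives that gave them a value. They were Tmem216, Ofd1, Tekt1, Gli2 and Gli3. Ofd1 and Tekt1 have 1 probe set each, so only the centring could change their values. Tmem216 and Gli2 have 1 measured probe set each, so only the centring and the use of every probe set could. Most of these alternatives were thus no check of those genes. Tmem216 ran from 6.80 to 7.49, Gli3 from -3.30 to -2.69 and Gli2 from -3.06 to -2.45. Ift122 was within 2-fold after centring (0.82), as was Dnah9 (-0.95) and, with every probe set, at -0.94. Bbs7 reversed to 0.97 with every probe set and stood at -0.93 after centring. No paired analysis was possible because each line has 1 array, and no array could be left out.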
